A study of Mus musculus with 9 samples.

Results

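The genes described here are the salt-inducible kinases Sik1, Sik2 and Sik3 and the class IIa histone deacetylases Hdac4, Hdac5, Hdac7 and Hdac9, 7 of the 21911 protein-coding genes of the annotation. Their MyoD1 binding was taken from peaks overlapping the gene body with 10 kb on each side, or 75 kb for Sik1 (mouse build mm10, GENCODE M21). The loci, and the wider window at Sik1, were chosen by the peak calls and peak heights of these same 6 libraries, so those calls and heights are given as a description, with no test between no dox and +dox. The label used for the set is class II HDACs, and all 4 members belong to class IIa. Peaks of the 6 lists were merged where they overlapped or touched into 58309 regions, and 99 regions, built from 256 of 116126 peaks, lay at the 7 loci.

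MyoD1 was mapped by CUT and RUN, in which an antibody brings a nuclease to the protein on chromatin and the released DNA is sequenced. All libraries came from C2C12, a mouse myoblast line, with MyoD1 carrying 3xFlag-Halo at its own locus plus a further dox-inducible 3xFlag-Halo-MyoD1 transgene under the TRE3GS promoter. There were 3 biological replicates left without doxycycline (no dox) and 3 treated with it for 6 h (+dox), both switched to differentiation conditions for that time. Wild-type C2C12 libraries were not analysed here. The line is 1 clone, the M2 anti-Flag antibody sees the endogenous and the induced protein alike, and the transgene is driven by doxycycline.

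Class IIa HDACs bind Mef2 transcription factors and hold their target genes silent, in part by bringing in corepressors. Kinases that include the Siks phosphorylate the class IIa HDACs, whereupon 14-3-3 proteins bind them and they leave the nucleus, which frees Mef2 to work with MyoD1 on muscle genes. Protein kinase A restrains the Siks, and Sik1 is itself a target gene of the cAMP pathway. The question put to the data was where MyoD1 sits at these genes, as a possible route from MyoD1 dosage to Mef2 activity. Binding was measured, not expression, and a peak near a gene does not show which gene it acts on.

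For 4 of the loci, the most widely called region (ties by mean percentile of height) is shown by the 200 bases around its maximum. Windows are printed where they hold CAGCTG, the E-box preferred by MyoD1. The maximum of a region is the median place of the maxima in the libraries with a peak. In the Sik2 region these places spread over 300 bp, more than the printed window. Capitals mark each CAGCTG. The windows are on the plus strand of GRCm38, the assembly behind mm10, and are read 5′ to 3′. The Sik1 window, chr17:31790826-31791025, is intergenic. The Sik2 window, chr9:50885226-50885425, lies in an intron of the neighbouring gene Ppp2r1b. The Sik3 window, chr9:46067663-46067862 and the Hdac4 window, chr1:92099576-92099775, lie in introns of those genes.
Sik1: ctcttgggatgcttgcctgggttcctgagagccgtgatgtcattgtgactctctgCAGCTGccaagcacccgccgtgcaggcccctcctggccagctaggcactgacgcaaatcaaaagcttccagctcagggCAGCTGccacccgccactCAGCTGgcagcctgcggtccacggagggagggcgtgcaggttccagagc
Sik2: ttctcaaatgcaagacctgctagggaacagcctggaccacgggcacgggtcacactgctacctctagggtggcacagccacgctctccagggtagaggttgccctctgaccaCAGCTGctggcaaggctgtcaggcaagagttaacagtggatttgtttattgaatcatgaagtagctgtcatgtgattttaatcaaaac
Sik3: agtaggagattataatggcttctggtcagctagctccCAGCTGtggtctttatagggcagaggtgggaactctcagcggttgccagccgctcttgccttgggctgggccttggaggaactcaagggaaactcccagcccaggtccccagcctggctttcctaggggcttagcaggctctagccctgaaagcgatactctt
Hdac4: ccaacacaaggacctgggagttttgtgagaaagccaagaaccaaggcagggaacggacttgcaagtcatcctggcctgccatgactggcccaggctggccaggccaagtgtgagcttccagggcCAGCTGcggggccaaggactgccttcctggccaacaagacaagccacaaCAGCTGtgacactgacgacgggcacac
The Sik1 window held 3 copies of CAGCTG, that of Hdac4 held 2, and those of Sik2 and Sik3 held 1 each. At Hdac5, 2 regions were called in all 6 libraries. That with the higher mean percentile had no CAGCTG within 100 bp of its maximum and is not printed. Extended by 100 bp on each side, that whole region held 2 copies. The other had 1 copy within 100 bp of its maximum. No sequence is printed for Hdac7.

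The 6 lists differed in length and depth. Lists of no dox replicates 1 to 3 held 9389, 13877 and 13403 peaks, and those of +dox replicates 1 and 2 held 12536 and 13260, while +dox replicate 3 held 53661. Depth, read from the step of the peak heights, lay between 2868000 and 4667000 alignments in 5 libraries and was 8030000 in +dox replicate 3. Reads were sequenced in pairs, so 1 DNA fragment can count as 2 alignments, here and in the heights below. Heights are therefore given mostly as percentiles of maximum signal within a library's own list, where 100 is the top, and the long list of +dox replicate 3 gives the same site a higher percentile. A missing call is not a signal of 0, because each list has its own lowest peak, between 0.498 and 1.67 CPM, that is coverage scaled to the library's total. Core regions are those with a peak in at least 2 of 3 no dox libraries, and Expanded regions are +dox consensus regions, called by the same rule, that overlap no Core region.

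The 7 loci held 24, 40 and 33 peaks in the 3 no dox libraries and 27, 32 and 100 in the 3 +dox libraries. The +dox value of replicate 3 stood apart and the other 5 libraries overlapped between groups. Group means were 32.3 ± 8.02 peaks without dox and 53 ± 40.8 with dox (SD, n = 3 each), a difference of 20.7 that became -2.83 without +dox replicate 3. Per 1000 listed peaks the loci held 2.63 ± 0.221 without dox and 2.14 ± 0.275 with dox (SD, n = 3 each). The lowest no dox share, 2.46, lay just above the highest +dox share, 2.41, and this was not tested. The highest of the 6 shares was 2.88 per 1000 in no dox replicate 2 (95% Wilson interval 2.12 to 3.92) and the lowest was 1.86 in +dox replicate 3 (1.53 to 2.27), with intervals that cover counting error only.

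Of the 99 regions, 48 were called in 1 library and 51 in 2 or more. Regions called in all 6 libraries numbered 13 (13.1%), where 8.30% of all regions were called in all 6. Regions called in +dox replicate 3 alone numbered 44 (44.4%), where the share over all regions was 59.2%. Their maxima in that library were 6 to 44 alignments high, with a median percentile of 44.8. No region at the 7 loci had a call in 3 +dox and 0 no dox libraries, against 1.09% of all regions, and 1 had calls in 3 no dox and 0 +dox libraries, against 0.00858%. With 10 kb on each side of every gene the 7 loci held 4.64 regions per 100 kb, and all protein-coding loci held 4.15 (a region at overlapping loci counts for each). With 75 kb at Sik1 the members' value was 5.40.

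**Figure D1:**
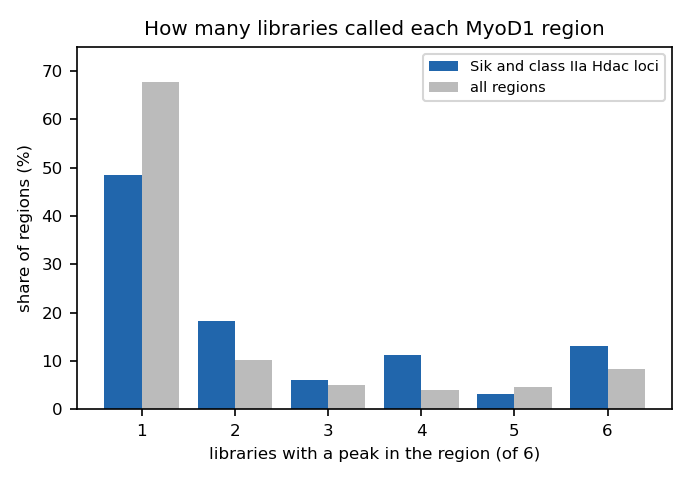
Share of regions (%) by the number of libraries, of 6, with a peak in the region, for the 99 regions at the Sik and class IIa Hdac loci (blue) and for all 58309 regions (grey). Regions called in 1 library made up 48.5% at these loci and 67.8% of all, and those called in all 6 made up 13.1% and 8.30%.

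The 7 loci held 24 Core regions and 34 +dox consensus regions, of which 13 were Expanded. That share, 38.2%, stood beside 38.5% of all +dox consensus regions. Of the Core regions, 4 (16.7%) overlapped no +dox consensus region, beside 10% of all Core regions. All 13 Expanded regions had a peak in +dox replicate 3, a share that was not computed over all Expanded regions. Of the 13, 9 already had a peak in 1 no dox library. Over all merged regions, 1573 had calls in 1 no dox and 2 +dox libraries and 1275 in 1 and 3. With 0 no dox calls, 1845 had 2 +dox calls and 634 had 3. Without +dox replicate 3 the 7 loci held 7 Expanded regions and 10 Core regions outside the +dox consensus. Leaving out +dox replicate 2 gave 9 such Core regions and leaving out no dox replicate 2 gave 2. Consensus in a group that lost a library needed both remaining libraries, a stricter rule. The stricter rule and the loss of the library cannot be told apart in these counts.

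With 10 kb on each side for every gene, 5 of the 7 loci had a Core region (35.5% of all protein-coding loci), 5 had an Expanded region (25.6%) and 4 had a region called in all 6 libraries (21.7%). Loci were not matched for length, and those of the members ran from 31.6 kb at Sik1 to 890 kb at Hdac9.

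**Figure D2:**
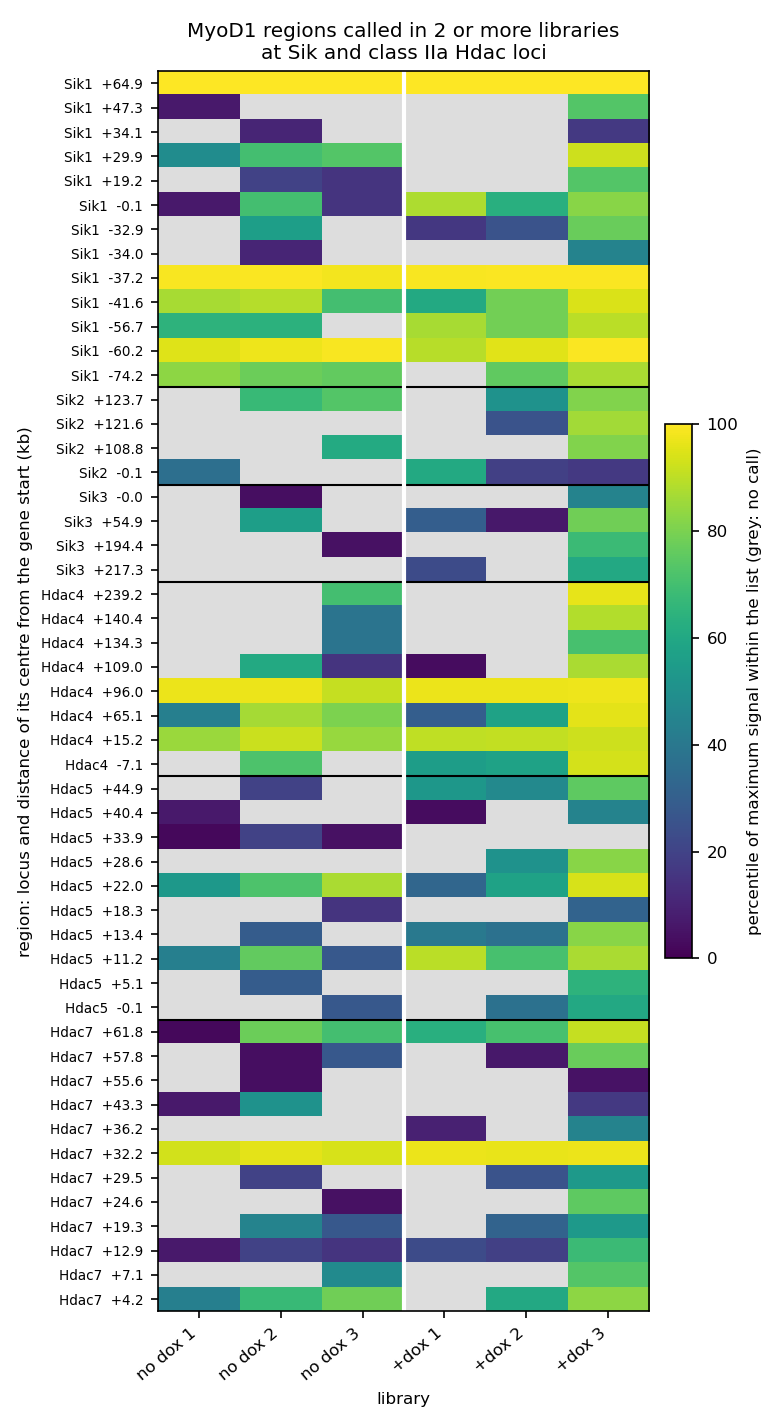
Percentile of maximum signal within each library's list (colour, grey for no call) for the 51 regions called in 2 or more libraries. Rows are regions named by locus and by the distance of their centre from the gene start in kb (positive: downstream along the gene's strand). Full rows of high percentiles stand at Sik1, Hdac4 and Hdac7, Sik2 and Sik3 have no row filled in all 6 libraries, and Hdac9 has no row.

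Sik1, the kinase of the family whose own transcription responds to cAMP, had the highest region of the set in its window of 75 kb, a window chosen from these peaks, and that region was outside the gene. Its locus, with 75 kb on each side, held 26 regions, 9 Core, 1 Expanded and 5 called in all 6 libraries. Of the 26, 12 were called in +dox replicate 3 alone. Sik1 had the nearest protein-coding start for all 26, although 3 touched its gene body. Within 10 kb of the gene there were 6 regions, of which 1 was called in all 6 libraries, at a mean percentile of 54.1. That lay below the highest such regions of Hdac4 (96.1), Hdac7 (95.6) and Hdac5 (66.2).

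The leading Sik1 region, chr17:31787701-31791950, was centred 64.9 kb downstream of the Sik1 start, beyond the 3′ end of the gene. It ranked 4, 21 and 43 by height in the no dox lists and 4, 4 and 16 in the +dox lists. It was thus among the highest peaks of every list in both groups. Its maximum was 182, 180 and 54.4 CPM without dox and 512, 321 and 133 CPM with dox, so 1 +dox value (133) lay below a pair of no dox values. CPM has no spike-in scale, and over all regions called in all 6 libraries the median maximum was 5.57 to 9.48 CPM without dox and 10.96 to 17.43 CPM with dox. The maximum fell on the same place in all 6 libraries, and the region held 7 copies of CAGCTG, 3 of them in the window printed above.

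Upstream of Sik1 stood a further row of regions. At -37.2 kb (chr17:31891601-31893650) the percentiles were 99.04, 99.33 and 98.39 without dox and 99.22, 99.46 and 99.57 with dox, with 3 copies of CAGCTG at the maximum. At -60.2 kb (chr17:31913851-31917250) they were 94.93, 97.36 and 98.97 without dox and 89.1, 95.5 and 99.4 with dox. At -41.6 kb (chr17:31896451-31898300) they were 86.9, 88.8 and 70.0 without dox and 60.8, 78.8 and 94.5 with dox. In all 3 regions the groups overlapped, and the region at -41.6 kb spread most between replicates.

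The Sik1 promoter region, chr17:31854701-31856900, was called in all 6 libraries at much more variable heights. Its percentiles were 6.80, 69.9 and 14.9 without dox and 87.6, 63.2 and 82.2 with dox. The difference of means, 47.1 percentile points, was the largest among the 13 member regions called in all 6 libraries, yet no dox replicate 2 lay above +dox replicate 2. The SD over the 3 no dox libraries was 34.4 points, and the maxima there were 10, 30 and 8 alignments high. There was no CAGCTG within 100 bp of the maximum, but the places of the maxima spread over 500 bp between libraries. The whole region, extended by 100 bp, held 2 copies.

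The only Expanded region at Sik1, at -32.9 kb, had percentiles of 16.0, 25.7 and 77.0 in the +dox libraries and 56.2 in no dox replicate 2. Between the gene and the leading region, 2 Core regions lay outside the +dox consensus. At 29.9 kb the no dox percentiles were 48.5, 69.9 and 73.4 and the only +dox call, 92.5, was in replicate 3. At 19.2 kb no dox replicates 2 and 3 gave 19.7 and 14.9 and +dox replicate 3 gave 73.2. Both were thus called with dox in 1 library.

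**Figure D3:**
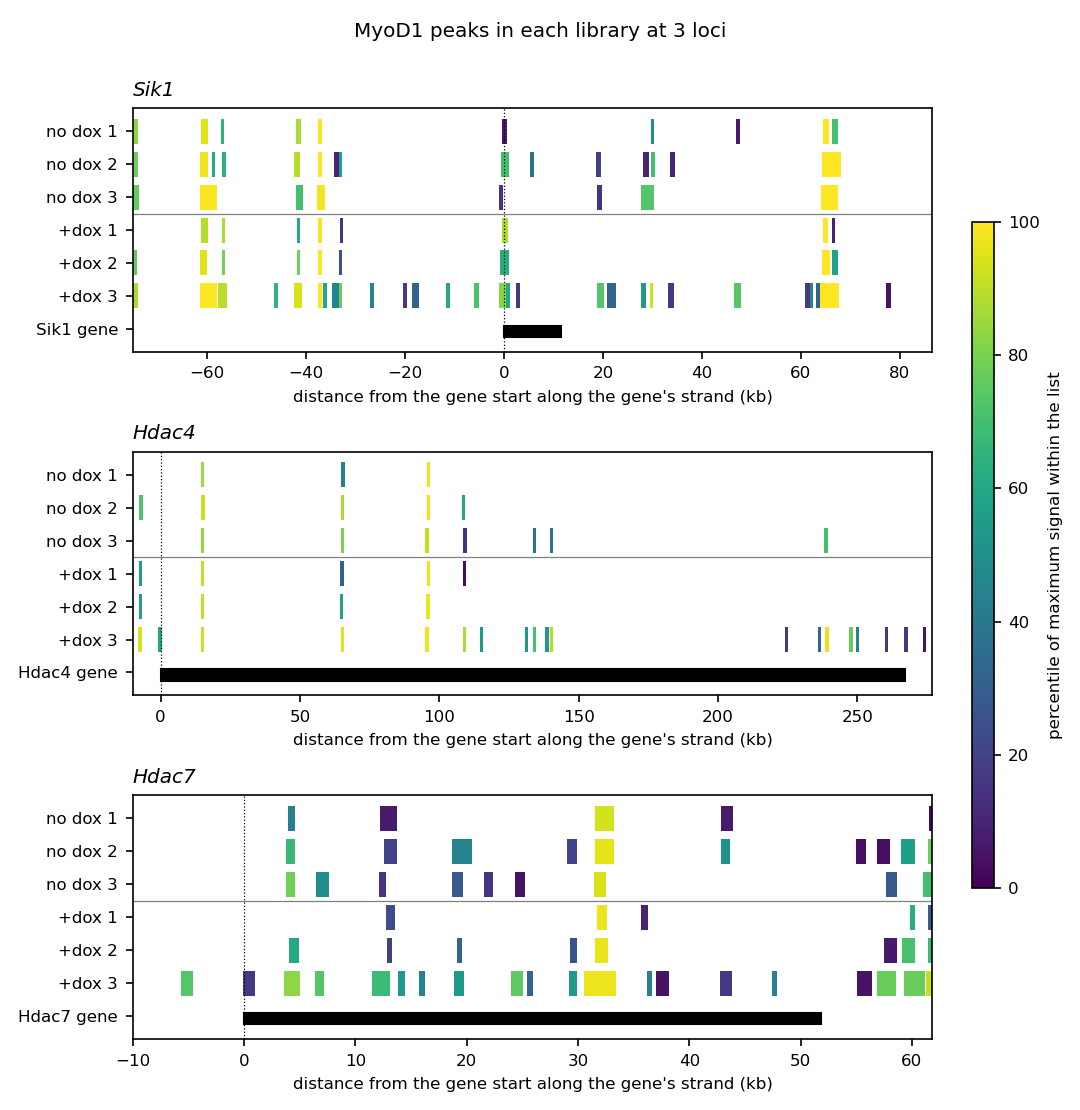
MyoD1 peaks in each of the 6 libraries at Sik1, Hdac4 and Hdac7 by distance from the gene start in kb along the gene's strand, coloured by percentile of maximum signal within the list, with the gene body in black (the narrowest peaks are drawn wider than scale). The highest peaks stand outside Sik1 at 64.9, -37.2 and -60.2 kb, and inside Hdac4 at 96.0 kb and Hdac7 at 32.2 kb, in all 6 libraries.

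Sik2, a kinase that acts on both class IIa HDACs and the CREB coactivators of the CRTC family, had 6 regions, 1 Core and 2 Expanded, and none called in all 6 libraries. The Core region (chr9:50883951-50886350) had percentiles of 67.4 and 73.4 in no dox replicates 2 and 3 and 50.8 and 81.1 in +dox replicates 2 and 3. It was called in 4 libraries, as many as the Sik2 promoter region, at a higher mean percentile. It lay 124 kb downstream of the Sik2 start in an intron of Ppp2r1b, which encodes a scaffold subunit of protein phosphatase 2A. An Expanded region next to it stood at percentile 25.7 in +dox replicate 2 and 86.3 in +dox replicate 3.

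The other Expanded region at Sik2 was its promoter (chr9:51008551-51009550). It was called in all 3 +dox libraries, at percentiles of 60.8, 19.0 and 16.7, and in no dox replicate 1 at 36.6. The no dox value lay inside the +dox range. The region held no CAGCTG.

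Sik3, a kinase known for its part in cartilage growth through Hdac4, had 15 regions, of which 11 were called in +dox replicate 3 alone. It had no Core region and none called in all 6 libraries. Both of its +dox consensus regions were Expanded. The intronic region at 54.9 kb (chr9:46067551-46068500), printed above, had percentiles of 29.7, 6.48 and 78.5 with dox and 56.2 in no dox replicate 2, at maxima of 2.78 to 5.58 CPM. The other, in a coding exon of the neighbouring apolipoprotein gene Apoa1, stood at percentile 23.0 in +dox replicate 1 and 60.2 in +dox replicate 3, with no call without dox.

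Hdac4, the class IIa deacetylase best known in muscle for its response to denervation and in cartilage for restraining Mef2c, had 20 regions, of which 12 were called in +dox replicate 3 alone. It had 4 Core regions and 1 Expanded region, and 3 were called in all 6 libraries, all inside introns. The highest (chr1:92099251-92100800), 96.0 kb into the gene, had percentiles of 97.0, 97.1 and 91.2 without dox and 96.9, 97.2 and 97.4 with dox. Its maxima were 34.0, 34.3 and 10.7 CPM without dox and 72.5, 56.7 and 21.2 CPM with dox, at the same place in all 6 libraries. Means were 95.1 ± 3.38 and 97.2 ± 0.238 percentile points (SD, n = 3 each), and the groups overlapped.

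The region at 15.2 kb (chr1:92179851-92181350) was centred 185 bp from an annotated Hdac4 start. Its percentiles were 84.8, 92.1 and 84.8 without dox and 90.4, 90.7 and 92.3 with dox. At 65.1 kb (chr1:92129701-92131050) they were 43.0, 86.6 and 80.3 without dox and 29.7, 57.6 and 95.8 with dox. Both overlapped between groups. The Expanded region, at -7.10 kb, had percentiles of 55.8, 57.6 and 93.5 with dox and 72.2 in no dox replicate 2.

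Hdac5, a class IIa deacetylase that shuttles out of the nucleus in differentiating myoblasts, had 12 regions in a locus of 55.7 kb, 21.5 per 100 kb, with 3 Core and 5 Expanded. Of the 12, 8 had their centre within 1 kb of an annotated transcription start. Both regions called in all 6 libraries were intronic, and that at 11.2 kb was centred 47 bp from an annotated Hdac5 start. The region at 11.2 kb (chr11:102217401-102220450), had percentiles of 43.0, 76.04 and 27.5 without dox and 89.8, 71.1 and 87.4 with dox. The other, at 22.0 kb (chr11:102207401-102210550), had 53.3, 72.2 and 87.1 without dox and 32.9, 57.6 and 93.9 with dox. The means differed by 33.9 points at 11.2 kb and by -9.39 points at 22.0 kb, with overlapping groups at both.

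The region at the 3′ end of Hdac5, in its UTR (chr11:102195651-102196950), was the member region called in 3 no dox and 0 +dox libraries. Its no dox percentiles were 2.28, 19.7 and 4.47, at maxima of 8, 12 and 6 alignments. In replicates 1 and 3 it was thus near the bottom of the list. The 5 Expanded regions of Hdac5 had +dox percentiles between 3.50 and 82.2. In 2 of them the nearest protein-coding start was that of a neighbour, Lsm12 or G6pc3.

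Hdac7, a class IIa deacetylase with known roles in endothelium and thymocytes and in myoblasts, had the densest binding of the set. Its locus held 20 regions or 27.8 per 100 kb, with 7 Core and 2 Expanded regions. Of the 20, 7 were called in +dox replicate 3 alone. The highest, in an intron 32.2 kb from the start, had percentiles of 93.2, 96.0 and 93.9 without dox and 97.1, 96.6 and 97.1 with dox. Every +dox value lay above every no dox value. Means were 94.3 ± 1.43 and 96.9 ± 0.301 points (SD, n = 3 each). Maxima were 21.4, 28.0 and 13.3 CPM without dox and 74.6, 50.6 and 19.7 CPM with dox, and these overlapped.

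The other Hdac7 regions called in all 6 libraries were lower. At 61.8 kb, within 10 kb of the 3′ end and in an intron of the haem transporter gene Slc48a1, percentiles were 2.28, 77.7 and 70.0 without dox and 63.1, 71.1 and 91.4 with dox. At 12.9 kb, 94 bp from an annotated Hdac7 start, they were 6.80, 19.7 and 14.9 without dox and 23.0, 19.0 and 68.0 with dox. The groups overlapped at both. The 2 Expanded regions, at 36.2 and 29.5 kb, had +dox percentiles between 9.05 and 54.0. A Core region at 43.3 kb, in an exon, had percentiles of 6.80 and 51.0 in no dox replicates 1 and 2 and 16.7 in +dox replicate 3, outside the +dox consensus.

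Hdac9, the class IIa deacetylase from which the muscle Mef2 inhibitor MITR is also made, had no peak in any of the 6 lists in a locus of 890 kb. Of 86 protein-coding loci at least as long, 18 (20.9%) had no region, and their median was 3. The nearest region lay 72.9 kb from the gene, in 1 +dox library and no no dox library.

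Over the 13 member regions called in all 6 libraries, the mean percentile with dox minus that without dox had a median of 2.12 points, from -9.39 to 47.1. Over all 4838 such regions the median was 6.40 points. The 3 +dox values all lay above the 3 no dox values in 2 of the 13 (15.4%), the leading regions of Sik1 and Hdac7, where 23.7% of all such regions did so, and all below in 0, where 0.0413% did. Without +dox replicate 3 the medians were 0.423 points at the members and 1.91 points over all shared regions. The percentile was then taken among the 4838 shared regions alone, a measure added after the values were seen because it does not depend on the length of the list. The members' median became -1.602 points and that of all regions 0.195. None of the 13 had groups that did not overlap, where 3.56% of all lay wholly higher with dox and 4.44% wholly lower.

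**Figure D4:**
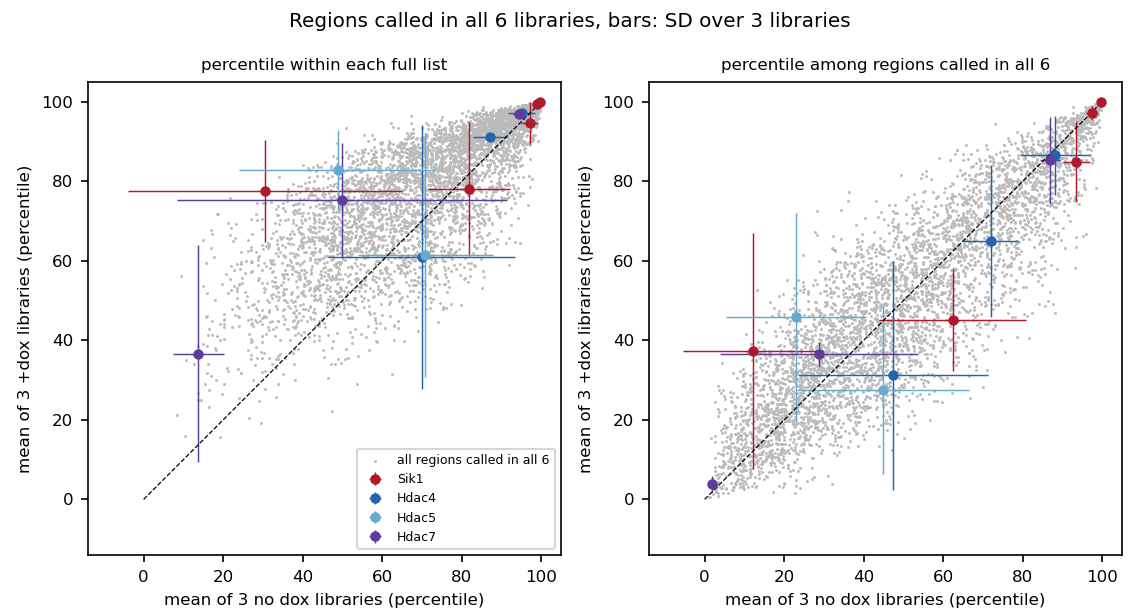
Mean percentile over 3 +dox libraries against that over 3 no dox libraries for regions called in all 6, at Sik1, Hdac4, Hdac5 and Hdac7 (coloured, bars give the SD over 3 libraries) and for all 4838 (grey). Ranked within each full list (left) the grey points lie mostly above the diagonal, and ranked among the 4838 shared regions (right) they lie around it, with the 13 member regions on both sides.

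The sequence, which had no part in choosing the loci, was searched for CAGCTG, a palindrome, in each region extended by 100 bp. It was present in 69 of the 99 member regions (69.7%, 95% Wilson interval 60.05 to 77.87), in 64.1% of all regions, and in 45.5% of the member windows moved by 10 kb. It was present in 12 of the 13 member regions called in all 6 libraries (92.3%, interval 66.7 to 98.6), beside 85.4% of all such regions, and in 54.2% of member regions called in 1 library. The same windows moved by 10 kb held it in 76.9% and 35.4%. The 13 regions had a median width of 2250 bp, and all member regions a median of 1100 bp, beside 900 bp for all regions. Within 100 bp of the maximum, 31 of 99 (31.3%, interval 23.0 to 41.0) held it, beside 29.4% of all. The printed intervals hold the share of all regions in each of these comparisons.

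A loose form of the Mef2 box (CTA, any 4 bases, then TAG), searched on both strands, was present within 100 bp of the maximum in 6 of 99 member regions (6.06%, interval 2.81 to 12.6) and in 2.03% of all regions. In the same windows moved by 10 kb the shares were 3.03% and 2.99%, both inside the interval, while the 2.03% lay below it. It was 1 of 4 motifs searched, and no test was run. Besides CAGCTG, the others were CAGGTG and TGANTCA (N, any base). Within 100 bp of the maximum they were in 19.2% and 15.2% of member regions, beside 21.1% and 12.3% of all. The printed window of Sik2 held 1 match of the loose Mef2 box. A match is a description of the letters, not a site.

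By place, 18 of the 99 member regions (18.2%) had their centre within 1 kb of an annotated start, beside 23.8% of all regions. Of the 13 called in all 6 libraries, 4 (30.8%) did so, beside 51.6% of all such regions. Introns held 56 of the 99 and 33 were intergenic, 24 of them at Sik1 with its window of 75 kb. Centres just upstream of a gene start also count as intergenic, and neither share was computed over all regions. Counting only regions that touch the gene body left 61 regions, 13 of them Core and 8 called in all 6 libraries.

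At the border of the loci, the member region nearest to the inner edge at Sik1 (chr17:31929501-31930800) had a mean percentile of 79.9 and was called in 5 libraries, and the nearest region outside had 44.8 in 1 library. At Hdac5 a region 4284 bp past the border was called in all 6 libraries at a mean of 82.6, above both members called in all 6, while the region on the opposite border had 48.7. At Sik2, Sik3, Hdac4 and Hdac7 the nearest region outside was called in 1 library, at 14.9 to 44.8.

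Other genes of the pathway were taken from fixed lists of 46 loci, with 10 kb on each side. Of these, 44 had a region, 32 (69.6%) a Core region, 18 (39.1%) an Expanded region and 22 (47.8%) a region called in all 6 libraries. Of all protein-coding loci, 28.2% had no region, 35.5% a Core region, 25.6% an Expanded region and 21.7% a region called in all 6. The list was made with knowledge of earlier results and was not matched for length or activity, so the shares stand as counts. Among the Mef2 genes themselves, Mef2a had a region near its start with a mean percentile of 85.4 over the 6 libraries, and the highest region of Mef2d called in all 6 had 76.1. Mef2b had 12 regions and Mef2c 1, none called in all 6.

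The highest region of the other lists was at Prkaca, the catalytic subunit of protein kinase A that acts on the Siks. It had percentiles of 99.4, 99.2 and 97.1 without dox and 99.7, 99.7 and 99.8 with dox. Prkar1a, a regulatory subunit of protein kinase A, had a mean of 95.8. Prkd2, a kinase that also phosphorylates class IIa HDACs, had 94.9, with Dact3 as the nearest start. Crtc2, a CREB coactivator and Sik substrate, had 92.3, with Dennd4b as the nearest start, and Ppp3ca, the catalytic subunit of calcineurin, had 88.8.

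As a check on the mapped factor, 6 muscle loci were read the same way. Of these, 5 (Myod1, Mymk, Cdh15, Des and Chrna1) had a region called in all 6 libraries, beside 21.7% of all protein-coding loci. That of Mymk had Adamtsl2 as the nearest start. Myog had a Core region but none called in all 6. The region in the coding exon of Myod1 had a mean percentile of 98.1, and MyoD1 coding sequence is also present in the transgene.

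Genes most like each member were found by the mean absolute difference, over 6 libraries, in the percentile of the highest peak within 10 kb. Hdac4 was nearest to Map1b (0.498 points), Hdac7 to Krtap1-3 and Krtap1-4 (0.615, equal), and Sik1 to Cnot7 and Vps37a (2.11, equal). Hdac5 was nearest to AI837181 and Drap1 (2.98, equal), Sik2 to Col16a1 (3.16) and Sik3 to Ly6d (3.72). Equal values come from neighbouring genes that share a peak. Hdac9, with no peak, was left out.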

How the data were processed

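MyoD1 CUT and RUN peaks of 3 no dox and 3 +dox libraries were analysed. The authors aligned reads to mm10 with the nf-core/cutandrun pipeline, removed blacklisted places, scaled coverage to CPM and called peaks per library with SEACR in relaxed mode. The submitters' processing notes also name deepTools. The control and threshold used for SEACR are not given in the sources used here. The deposited lists hold, for each peak, its total and maximum signal (coverage in CPM) and the place of the maximum, on a grid of 50 bp. No peak ended past a GRCm38 chromosome, and 2 lay on other sequences.

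Maximum signals were whole multiples of a step, the worth of 1 alignment, in 100% of peaks (tolerance 0.02 steps), which gave the depths. Signal values were ranked within a list. Peaks were merged, consensus needed 2 of 3 libraries and overlap 1 bp, and merging, consensus and ranks were tested on simulated data. Shares carry 95% Wilson intervals, which cover counting error only. No test was run between groups, because the calls chose the loci. An exact permutation test of 3 against 3 libraries could not go below 0.1.

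The members and lists were chosen with earlier results of these data known. Named were all members, at each locus the region called in most libraries (ties by mean percentile), regions called in all libraries of a single group, Expanded regions and Core regions outside the +dox consensus (ranges where a locus had more than 4), all Mef2 genes, the other pathway genes with the highest regions called in all 6 libraries (of 6 by this rule, 5 are given), and the genes most alike. A pathway gene and a sequence that the rules select are not reported here. Further regions called in all 6 libraries were named after their values were seen. Alternatives left out each library, gave lists equal length, and changed the flank, consensus, overlap, rank and motif rules. Python 3.11.15, NumPy 2.4.6, pandas 2.3.3, SciPy 1.17.1, pysam 0.24.0 and matplotlib 3.10.9 were used.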

Additional observations from a re-analysis of the deposited data

How the results depend on the processing

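Of 102 alternative values, 79 stayed within 1.5 times the count, within the Wilson interval of the share, or within 1 SD between replicates (7.98 points for the median percentile difference, 40.8 peaks for the difference in peaks), 18 moved further and 5 changed sign. Both SDs are larger than the main values, 2.12 points and 20.7 peaks. A smaller value in those units thus counted as staying unless its sign changed. Leaving out each library in turn gave 56 to 101 regions at the 7 loci, 17 to 24 Core regions, 7 to 18 Expanded regions, 2 to 10 Core regions outside the +dox consensus, 13 to 15 regions called in all remaining libraries, median percentile differences of 0.423 to 4.74 points, CAGCTG shares of 69.3% to 70.4%, and +dox minus no dox differences of -2.83 to 33.7 peaks, the negative value being that without +dox replicate 3. With replicates 1 and 2 alone, an alternative chosen after seeing the data, there were 49 regions, 7 Expanded regions and a difference of -2.50 peaks. With lists shortened to the 9389 highest peaks there were 42 regions and 4 Expanded regions, the median percentile difference was -4.65 points (-0.831 over all regions) and that in peaks -1. Ranking among the regions called in all 6 libraries, also chosen after seeing the data, gave -1.602 points, and the log2 maximum signal relative to the median of all shared regions gave 0.024. The log2 value is in other units, so it was set among the 18 that moved and not judged by the SD. Consensus in 3 of 3 libraries gave 7 Expanded regions. The gene body alone gave 61 regions, 13 Core, 7 Expanded, 2 Core outside the +dox consensus and 8 called in all 6 libraries. The CAGCTG share was 31.3% within 100 bp of the maximum and 45.5% in windows moved by 10 kb. Apart from fewer peaks, fewer libraries (with 2 still needed for consensus) or narrower windows, the cause of these changes was not tested. No paired analysis was possible because the results come from no test. Depth limits the low regions: a list's lowest maxima were 0.498 to 1.67 CPM, so a missing call was not a measured absence.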
